A study of Mus musculus with 4 samples.

Results

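The 48 genes described here encode proteins of mitosis, the stage of the cell cycle at which a cell separates its copied chromosomes and divides. A gene was included where its name in the scanner files equalled a listed symbol. All 48 were found among the 28090 gene names on the arrays. They carried 83 probes, with 20 genes on 1 probe, 21 on 2 and 7 on 3, and each gene is read from the probe with the highest signal over the 4 arrays unless another is named.

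RNA came from the prostates of male mice 8 weeks of age in 4 groups, which were C57BL/6 mice given olive oil, C57BL/6 mice given γ-TmT, TRAMP mice given olive oil and TRAMP mice given γ-TmT. γ-TmT (TmT below) is a mixture of tocopherols rich in gamma-tocopherol, a form of vitamin E, and was given once by gavage at 600 mg/kg. All mice ate an AIN-76A diet beforehand and were fasted overnight before the gavage, and prostates were collected 12 hours after it. Each group had 3 mice and 1 array, and whether the 3 mice of a group were pooled for its array is not given in the sources used here. TRAMP mice express the early genes of the SV40 virus, which encode its T antigens, from the rat probasin promoter, which is active in prostate epithelium. The background strain of the TRAMP mice is not given, so every comparison between genotypes below is one between mouse lines. With n = 1 array per group, the arrays compare these RNA samples, and the spread between mice is not measured.

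Entry into mitosis is driven by cyclin-dependent kinase 1 with cyclins A and B. Kinetochores, the protein assemblies on centromeres, then attach chromosomes to the spindle, a checkpoint holds the cell until all are attached, and the anaphase-promoting complex marks cyclin B and securin for destruction so that the chromosomes part and cytokinesis can split the cell. Most of these genes are transcribed in the late part of the cycle and are low in resting cells, and in an adult prostate few epithelial cells divide. A known feature of their promoters is the CHR (cell cycle genes homology region), a short element near the gene start that the MuvB complex binds, often a short distance from a CCAAT box, the site of the factor NF-Y.

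Levels are log2 of the processed Cy3 signal minus log2 of the 75th percentile of that signal on the same array, so that 1 unit is 2-fold. Levels of different probes are not comparable and are not compared. The scanner software marked 68.1% to 74.1% of the spots as well above background on 3 arrays and 63.9% on the array of TRAMP after TmT. Of 12 luminal epithelial markers of the prostate, 11 or 12 were well above background on each array, including Pbsn (probasin) and Krt18. Krt19 had an outlier mark on the array of C57BL/6 after TmT and was not counted there. All 6 seminal vesicle markers were also well above background on every array, and their summed level relative to the 75th percentile ranged from 1894 to 2168. That sum hides changes of single markers. For TmT minus oil in TRAMP, Svs1 was at -2.17, Svs3a at -2.15 and Svs2 at 1.09, and the others lay between -0.33 and 0.47.

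Of the mitosis genes, 37 were well above background on all 4 arrays, 5 on 3 arrays, 3 on 2 arrays, 2 on 1 array and 1 on none. The 5 genes seen on 3 arrays, Aurkb, Bub1b, Kif11, Hmmr and Racgap1, were all missing from the array of C57BL/6 after TmT. Casc5, Ercc6l and Ttk were well above background on both TRAMP arrays and on neither C57BL/6 array. Kif2c and Spag5 reached that mark on the array of TRAMP after oil alone, and Espl1 on none.

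To show the promoter element that many of these genes have in common, the stretch from 170 bases before to 30 bases after the annotated gene start is printed for 6 of them, from RefSeq on GRCm38.p6. Capitals mark CHR matches (TTTGAA, or TTCAAA where the match is on the other strand) and CCAAT box matches (CCAAT or ATTGG). The 6 genes are Ccnb2 (chr9:70421525-70421724), Cdc20 (chr4:118437314-118437513), Cdca8 (chr4:124936888-124937087), Racgap1 (chr15:99651627-99651826), Top2a (chr11:99024160-99024359) and Pttg1 (chr11:43425952-43426151), all on the minus strand, and each sequence runs 5′ to 3′ along the gene. The first 5 hold both elements. Pttg1 is shown as a gene whose level was alike in the lines, and holds neither in this stretch. Elements and line difference do not go together in every gene. Plk1, with a fitted line difference of 0.52 in the fit below, has a CHR match at base 31 and a CCAAT box at -14. Ccnb1, at 2.90, has CCAAT boxes and no CHR match from 250 bases before to 50 after the start.
Ccnb2: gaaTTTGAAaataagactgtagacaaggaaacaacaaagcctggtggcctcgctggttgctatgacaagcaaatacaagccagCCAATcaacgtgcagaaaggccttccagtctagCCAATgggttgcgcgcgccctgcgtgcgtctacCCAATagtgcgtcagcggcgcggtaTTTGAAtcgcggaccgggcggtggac
Cdc20: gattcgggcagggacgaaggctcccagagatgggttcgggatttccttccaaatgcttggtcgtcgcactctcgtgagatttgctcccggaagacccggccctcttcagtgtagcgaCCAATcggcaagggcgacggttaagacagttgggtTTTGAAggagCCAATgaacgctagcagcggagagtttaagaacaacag
Cdca8: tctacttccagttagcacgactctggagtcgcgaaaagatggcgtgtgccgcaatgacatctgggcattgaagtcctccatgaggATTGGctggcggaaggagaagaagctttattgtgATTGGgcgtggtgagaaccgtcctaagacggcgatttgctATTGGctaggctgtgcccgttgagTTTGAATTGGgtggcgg
Racgap1: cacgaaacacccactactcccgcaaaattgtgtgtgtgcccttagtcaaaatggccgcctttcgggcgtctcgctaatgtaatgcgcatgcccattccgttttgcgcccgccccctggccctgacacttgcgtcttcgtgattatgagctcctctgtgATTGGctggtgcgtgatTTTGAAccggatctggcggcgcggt
Top2a: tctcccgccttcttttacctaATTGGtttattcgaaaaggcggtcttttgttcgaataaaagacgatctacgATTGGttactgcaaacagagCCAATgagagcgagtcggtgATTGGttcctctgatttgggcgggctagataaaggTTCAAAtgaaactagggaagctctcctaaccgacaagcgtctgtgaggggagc
Pttg1: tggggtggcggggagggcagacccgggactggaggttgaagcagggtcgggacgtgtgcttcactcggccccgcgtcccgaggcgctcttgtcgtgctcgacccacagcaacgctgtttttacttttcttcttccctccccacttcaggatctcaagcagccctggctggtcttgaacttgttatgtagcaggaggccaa
In Ccnb2 a CHR match began at base 5 of the transcript and 3 CCAAT boxes preceded it, at -87, -54 and -21. The CHR match of Cdc20 began at -18, that of Top2a at -23, that of Racgap1 at base 6 and that of Cdca8 at base 14, where its last base is shared with a CCAAT match.

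RefSeq promoter windows of 300 bases, from 250 before to 50 after the start, were at hand for 41 of the 48 genes, in 43 windows. TTTGAA, searched on both strands, occurred in 74.4% of these windows and in 17.9% of all 32851 windows in the table. Within 60 bases of the start it occurred in 65.1% of the members' windows and in 5.66% of all windows, or 3.69% of the 15083 windows of genes tested in the fit below. CCAAT occurred in 74.4% against 37.4%, and at least 2 copies occurred in 51.2% against 11.7%. A CHR match within 60 bases together with a CCAAT box was found in 55.8% of the members' windows and 2.38% of all. The E2F motif, searched as TTTGGCGC, TTTCCCGC or TTTCGCGC on both strands, was in 0% of the members' windows and in 1.85% of all windows. A match describes these letters and not a bound site, and the limit of 60 bases was chosen after the matches had been seen.

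**Figure D1:**
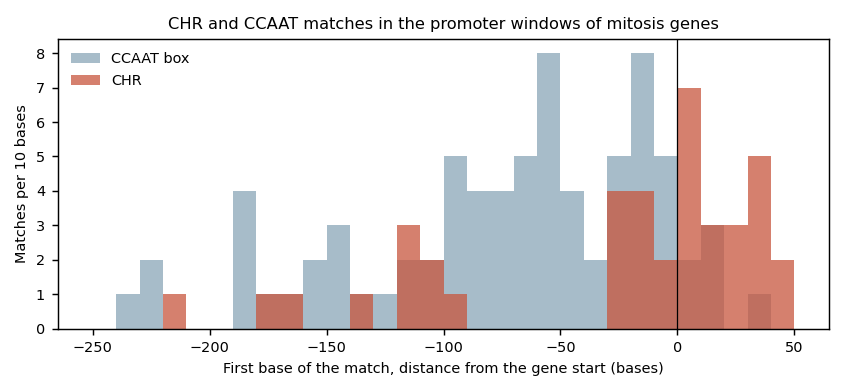
The histogram gives the number of CHR matches (red) and CCAAT box matches (blue) per 10 bases in the 43 promoter windows of the mitosis genes, against the distance in bases of the first base of the match from the gene start. The 40 CHR matches have their median at -1 and the 76 CCAAT matches at -60.

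Mitosis genes were higher in TRAMP than in C57BL/6 prostates under either treatment. After oil, 35 of the 42 genes measured on both arrays were at least 2-fold higher in TRAMP and 0 that much lower, where 7.73% of all measured genes were higher and 7.85% lower. Their median difference was 2.06, and that of all genes was -0.07. After TmT the same held for 29 of 37, and 0 were lower, where 8.43% of all measured genes were higher and 6.11% lower. The median was 1.66. The 29 became 14 with normexp background correction, a setting that also adds an offset of 50 to every signal. These 2 comparisons rest on different arrays, and 26 of the 37 genes measured on all 4 arrays were at least 2-fold higher in both, against 2.85% of all genes. For 34 of the 37, both TRAMP arrays lay above both C57BL/6 arrays, which held for 21.9% of all genes, the exceptions being Nuf2, Kif20a and Pttg1. In bulk tissue, fewer cells of a type and less RNA per cell cannot be told apart. Markers of other cell types moved between the lines as well. After oil, all 7 adipocyte markers measured on both arrays were at least 2-fold higher in TRAMP (median 2.67), 4 of 6 neuroendocrine markers were at least 2-fold lower (median -1.42), and 7 of 7 fibroblast markers lay below 0 (median -0.74). After TmT the medians were -0.22 over 5 adipocyte, -0.74 over 7 neuroendocrine and 0.41 over 7 fibroblast markers. Summed over its 8 markers, of which 6 to 8 were well above background on an array, the neuroendocrine level was 8.80 in C57BL/6 after oil, 12.2 in C57BL/6 after TmT, 6.56 in TRAMP after oil and 8.85 in TRAMP after TmT. Their part in the line differences of the mitosis genes was not tested.

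Line and treatment were also fitted together over the 4 arrays with limma, an additive model whose single residual degree of freedom is the difference between the TmT effects in the lines. Of the 37 mitosis genes seen on all 4 arrays, 34 had an unadjusted p under 0.05, all higher in TRAMP, where 6.92% of the 16961 genes seen on all arrays were higher and 5.41% lower at that p. Their median fitted difference was 1.88 and that of all these genes -0.06. After Benjamini-Hochberg adjustment over the 19921 genes fitted, 0 of the 37 passed 0.05. Of the 45 members fitted, Casc5 and Ercc6l passed, 2 genes, against 0.1% of all fitted genes higher and 0.0351% lower. The count lay between 0 and 31 under the alternatives of the closing section, for which the share of all genes is not given. Casc5, Ercc6l and Ttk entered the fit through the TRAMP arrays alone, so their p-values rest on C57BL/6 signals below the background mark and support nothing here. A p-value here measures the spread left by that 1 residual and not the spread between mice.

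**Figure D2:**
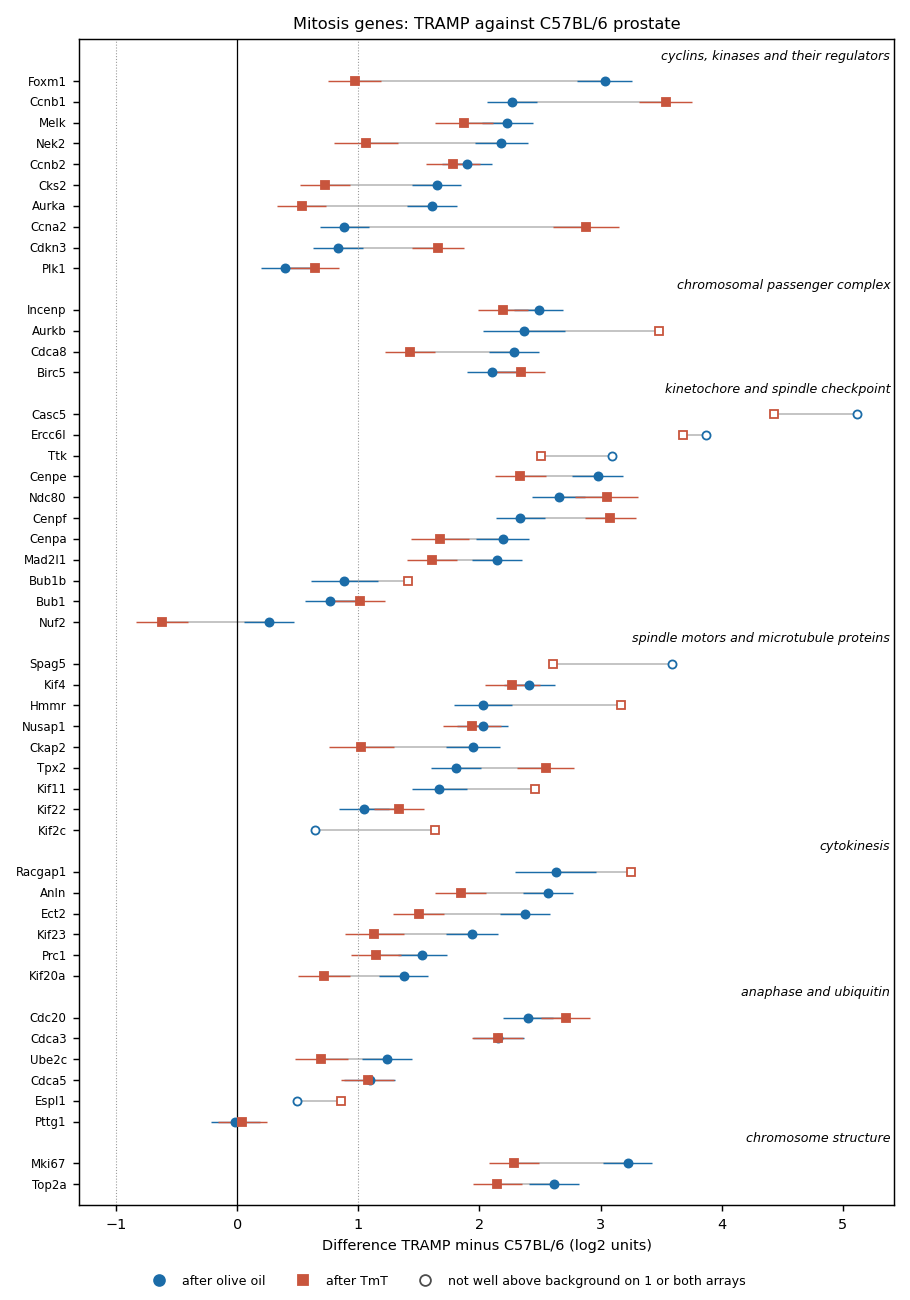
Each row is a mitosis gene, grouped by role, with the log2 difference of TRAMP minus C57BL/6 after olive oil (blue circles) and after TmT (red squares), and bars giving the scanner software's spot error. Open symbols mark a gene that was not well above background on 1 or both arrays, and all filled symbols except those of Nuf2 and Pttg1 lie to the right of 0 by more than 0.3.

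The cell cycle marker Mki67, which encodes the Ki-67 protein that coats mitotic chromosomes, was at 0.46 in C57BL/6 after oil, 0.07 in C57BL/6 after TmT, 3.68 in TRAMP after oil and 2.36 in TRAMP after TmT. Both TRAMP levels lay above both C57BL/6 levels, by 3.22 ± 0.20 after oil and 2.29 ± 0.20 after TmT, where ± is the spot error of the scanner software here and below. Its fitted line difference was 2.76 ± 0.38 (SE), with an adjusted p of 0.0796. Top2a, the topoisomerase that untangles chromosomes before they part, was at -0.26, -0.52, 2.36 and 1.63 on the arrays in the same order. Its line difference was 2.62 ± 0.20 after oil and 2.15 ± 0.21 after TmT, so the groups did not overlap for this gene either.

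Among the 10 cyclins, kinases and their regulators, 7 were at least 2-fold higher in TRAMP after oil and 6 after TmT, with medians of 1.77 and 1.36. Ccnb1 encodes cyclin B1, the partner of Cdk1 at mitotic entry. Its level was -1.28 in C57BL/6 after oil, -2.45 in C57BL/6 after TmT, 0.99 in TRAMP after oil and 1.09 in TRAMP after TmT. The line difference was 2.27 ± 0.21 after oil and 3.54 ± 0.22 after TmT, the latter the highest among members measured on both arrays. Ccnb2, the second mitotic B-type cyclin, was at -1.58, -2.34, 0.32 and -0.55, and its line differences of 1.90 ± 0.21 and 1.78 ± 0.22 were alike under the treatments. Ccna2 (cyclin A2, which acts from DNA synthesis to early mitosis) was at -1.99, -3.36, -1.10 and -0.48. Its line difference was 0.88 ± 0.20 after oil and 2.88 ± 0.27 after TmT.

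Foxm1, the transcription factor that acts on many late cell cycle genes, was at -3.21 in C57BL/6 after oil, -1.83 in C57BL/6 after TmT, -0.17 in TRAMP after oil and -0.86 in TRAMP after TmT. Its line difference was 3.04 ± 0.23 after oil and 0.97 ± 0.22 after TmT. Aurka, the kinase of centrosomes and spindle poles, was at -0.35, 0.36, 1.26 and 0.89, with line differences of 1.61 ± 0.20 and 0.53 ± 0.20. Plk1, a kinase needed from mitotic entry to cytokinesis, differed least in this group after oil. It was at -0.03, 0.06, 0.37 and 0.70, with line differences of 0.40 ± 0.20 and 0.64 ± 0.21 and an adjusted p of 0.502 in the limma fit. The centrosome kinase gene Nek2, at -2.66, -3.11, -0.47 and -2.05, was higher in TRAMP by 2.18 ± 0.22 after oil and by 1.06 ± 0.26 after TmT.

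All 4 genes of the chromosomal passenger complex, which corrects faulty attachments and then acts in cytokinesis, exceeded 2-fold in TRAMP after oil. Their median was 2.33. The survivin gene Birc5 was at 3.23, 2.86, 5.34 and 5.20 on the arrays in order, giving line differences of 2.10 ± 0.20 and 2.34 ± 0.20. The scaffold gene Incenp was at -0.20, 0.30, 2.29 and 2.50, with 2.49 ± 0.20 and 2.20 ± 0.20. Neither gene's groups overlapped. Aurkb, the kinase of the complex, was at -4.32 in C57BL/6 after oil, -1.96 in TRAMP after oil and -2.82 in TRAMP after TmT and not well above background in C57BL/6 after TmT. It was 2.37 ± 0.34 higher in TRAMP after oil and at least 3.36-fold higher after TmT. For such a bound the dim level is taken as its own value or the lowest one marked well above background on that array, whichever is higher. Cdca8, which encodes borealin and whose promoter is printed above, differed by 2.29 ± 0.20 after oil and 1.43 ± 0.20 after TmT.

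Kinetochore and checkpoint genes included the 3 that were dim on both C57BL/6 arrays. Casc5 (now Knl1, the kinetochore scaffold on which Bub1 and the Ndc80 complex gather) was at 0.24 in TRAMP after oil and -0.44 in TRAMP after TmT. In C57BL/6 its levels of -4.88 and -4.87 were not well above background. By this probe it was at least 33.9-fold higher in TRAMP after oil, at least 17.4-fold after TmT and at least 24.3-fold over both. Its limma adjusted p of 0.0481 has the limit given above. The probe lies on chromosome 2 at 118914569 to 118919747 (mm9). A second Casc5 probe, well above background on 3 arrays, differed by 2.34 log2 units after oil. That is less than the bound of the probe used, so the bounds do not hold for both probes. Ercc6l, a helicase that coats the DNA threads between parting chromosomes (X chromosome, 99338621 to 99338680), was at -1.03 and -2.59 in TRAMP after oil and after TmT and below that mark in C57BL/6, at -4.91 and -6.28. It was at least 14.0-fold higher after oil, at least 3.93-fold after TmT and at least 7.42-fold over both, with the same limma adjusted p of 0.0481 and the same limit. Its other 2 probes were well above background on 1 array and on none. Adjusted p-values of Casc5 and Ercc6l were over 0.05 with quantile normalization (0.0779 for each) and where the probes of a gene were averaged (0.0616 and 0.101), and that of Casc5 was 0.193 on the signal before multiplicative detrending.

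The checkpoint kinase gene Ttk was at -1.75 and -2.45 in TRAMP and not well above background in C57BL/6, at -4.85 and -4.96. It was at least 8.48-fold higher after oil and at least 4.35-fold after TmT. Of the kinetochore genes seen on all 4 arrays, Ndc80, whose product grips the microtubule, was at -2.70, -3.20, -0.04 and -0.15. Its line differences were 2.66 ± 0.22 and 3.05 ± 0.26, and its adjusted p of 0.0648 was the lowest among members seen on all 4 arrays. Cenpf was at -0.62, -1.51, 1.71 and 1.57, with 2.34 ± 0.20 and 3.08 ± 0.21. The kinetochore motor gene Cenpe was at -1.98, -1.62, 1.00 and 0.71, with 2.98 ± 0.21 and 2.34 ± 0.21. For all 3 of these genes the line difference exceeded the difference between treatments within either line.

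Bub1 and Nuf2 show how far the choice of probe can set a value. The brighter Bub1 probe was at -1.65, -1.51, -0.88 and -0.50, a line difference of 0.77 ± 0.21 after oil, and the other, well above background on all arrays but that of C57BL/6 after TmT, differed by 2.87. The Nuf2 probe used here was at -0.33, -0.75, -0.07 and -1.37, so its groups overlapped, with 0.26 ± 0.21 after oil and -0.62 ± 0.22 after TmT. A dimmer Nuf2 probe was well above background on the array of TRAMP after oil alone, so no difference is given for it. Nuf2 and Ndc80 proteins form 1 complex. By the probes used here, Nuf2 was the only member with a level lower in TRAMP by more than its spot error in either line comparison.

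All 7 spindle motor and microtubule genes measured on both arrays after oil were at least 2-fold higher in TRAMP, and so were all 5 after TmT, with medians of 1.95 and 1.94. Tpx2, which activates Aurora A on spindle microtubules, was at -1.43, -2.94, 0.37 and -0.39. Its line difference was 1.81 ± 0.21 after oil and 2.55 ± 0.24 after TmT. Kif4, a motor of chromosome arms and the central spindle, differed by 2.41 ± 0.21 and 2.27 ± 0.23. Kif22, a motor that carries chromosome arms outward, differed by 1.05 ± 0.20 and 1.34 ± 0.20. After TmT, Kif11 (the motor that separates the spindle poles) was at least 3.04-fold higher in TRAMP and Hmmr, a microtubule-binding protein, at least 5.03-fold.

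In this group, Spag5 and Kif2c were too dim for most comparisons. Spag5 was at -2.10 in TRAMP after oil, at least 6.67-fold above C57BL/6, and at -5.69, -6.45 and -3.84 on the other arrays, where it was not well above background. A second Spag5 probe, well above background on both oil arrays, differed by -0.48, the other way. Kif2c, which shortens microtubules, was at -4.19 in TRAMP after oil, at least 1.56-fold higher than in C57BL/6, and its other levels of -4.83, -6.47 and -4.84 were not well above background. Espl1, the protease that cuts cohesin and a member of the anaphase group, had levels of -5.09, -5.93, -4.60 and -5.08, none well above background, so no difference is given for it.

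After oil the 6 cytokinesis genes were all at least 2-fold higher in TRAMP, between 1.37 and 2.63 and with 2.16 as their median. Anln, which encodes the contractile ring protein anillin, was at -0.55, -1.72, 2.01 and 0.12, with line differences of 2.57 ± 0.20 and 1.84 ± 0.21. Ect2, the activator of the small GTPase RhoA at the division plane, differed by 2.37 ± 0.21 and 1.5 ± 0.21. Racgap1, which forms the centralspindlin complex with the motor Kif23, differed by 2.63 ± 0.34 after oil and was at least 2.65-fold higher after TmT. After TmT, 4 of the 5 genes of the group measured on both arrays were at least 2-fold higher, with a median of 1.15.

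Of the anaphase and ubiquitin genes, Cdc20, the activator of the anaphase-promoting complex, was at 0.20, 0.20, 2.60 and 2.91. Its line differences were 2.40 ± 0.20 and 2.71 ± 0.20, and its groups did not overlap. Ube2c, the ubiquitin-conjugating enzyme of that complex, was at -1.79, -1.60, -0.56 and -0.90, a smaller line difference of 1.24 ± 0.21 and 0.69 ± 0.22. Pttg1, which encodes securin, the inhibitor of Espl1 that is destroyed at anaphase, was at 3.16, 3.30, 3.14 and 3.34. It differed between lines by -0.02 ± 0.20 after oil and 0.04 ± 0.20 after TmT, within the spot error, and its fitted line difference was 0.01 ± 0.32 (SE, adjusted p = 0.989). Pttg1, Plk1 and Nuf2 were the 3 of those 37 genes with an unadjusted limma p above 0.05.

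The line difference was set beside the promoter letters. For the 18 genes seen on all arrays that had a CHR match within 60 bases of the start, fitted differences had a median of 1.89 and ranged from 0.52 to 2.85. For the 14 such genes with a window but no such match the median was 1.75, with a range of -0.18 to 2.90. The ranges overlapped over most of their length, and Mki67, with line differences above 2, had its CHR matches farther out, at -116 and -98.

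After TmT most mitosis genes were lower than after oil in TRAMP mice. Of 45 genes measured on both arrays, 13 were at least 2-fold lower and 0 that much higher, where 4.86% of all measured genes were lower and 8.66% higher. Their median was -0.69 and that of all genes was 0.10. In all, 36 of the 45 lay below 0. With normexp background correction 4 were at least 2-fold lower. In C57BL/6 mice, 5 of 37 were at least 2-fold lower and 1 was that much higher (with normexp 0 and 0), where 2.62% of all measured genes were lower and 3.13% higher, with a median of -0.33. In the limma fit over both lines 0 members passed for TmT after adjustment, as did 0.0% of all genes. Of the 37 seen on all arrays, 7 had an unadjusted p under 0.05, all lower, against 1.79% of genes lower and 2.39% higher.

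**Figure D3:**
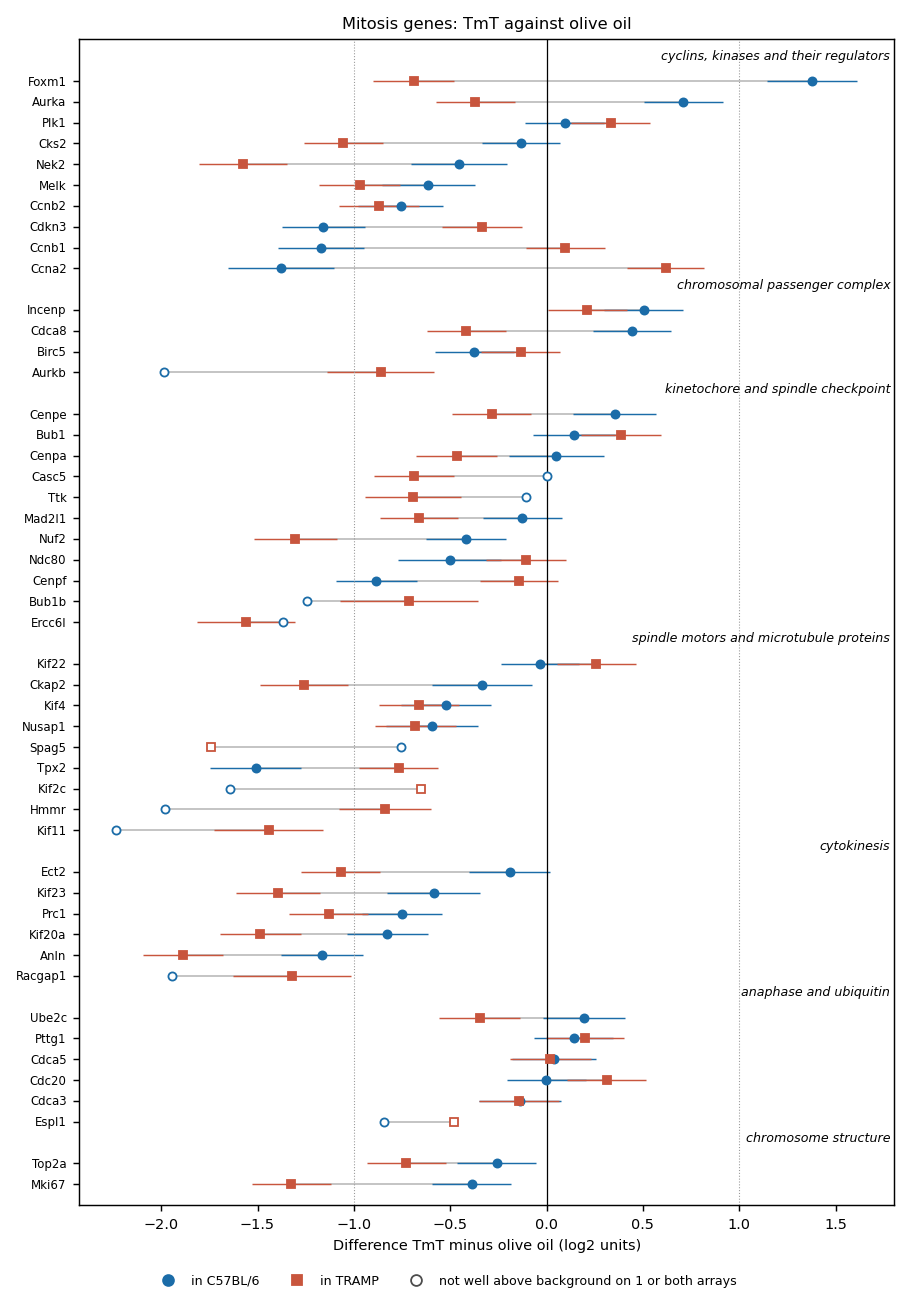
Each row is a mitosis gene, grouped by role, with the log2 difference of TmT minus olive oil in C57BL/6 (blue circles) and in TRAMP (red squares), and bars giving the scanner software's spot error. Open symbols mark a gene that was not well above background on 1 or both arrays. In TRAMP the 6 cytokinesis genes all lie below -1, and those of the anaphase and ubiquitin group lie near 0.

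Several measurements moved with the comparison of treatments in TRAMP. The array of TRAMP after TmT had the fewest spots well above background, and the scanner software recorded a multiplicative trend of 0 on it alone. The 8 adipocyte markers, of which 5 to 7 were well above background on an array and Lep on none, had a summed level of 250 in TRAMP after oil, against 29.1 in TRAMP after TmT, 44.2 in C57BL/6 after oil and 23.7 in C57BL/6 after TmT. The summed luminal level was 517 in TRAMP after oil, 864 in TRAMP after TmT, 1098 in C57BL/6 after oil and 1326 in C57BL/6 after TmT. That of 7 fibroblast markers, all well above background on every array, was lowest in TRAMP after oil, at 68.4, and 120 to 146 on the others. The part of these in the differences of the mitosis genes was not tested. Of 7 T cell markers, 5 or 6 were well above background on each array and Lck on none, and their summed level ranged from 0.777 to 1.10.

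The array of TRAMP after oil enters both the line comparison after oil and the comparison of treatments in TRAMP. It was the highest of the 4 for 28 of the 37 genes seen on all arrays, and that of TRAMP after TmT was highest for the other 9. The array of C57BL/6 after TmT was the lowest for 25 of the 37 and that of C57BL/6 after oil for 10.

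The cytokinesis genes had the lowest values with TmT in TRAMP of any role, and all 6 were at least 2-fold lower. Their median was -1.36. Anln had the lowest value of all members by the probe used, at -1.89 ± 0.21, and a second Anln probe was at -0.13. Next within this role were Kif20a (-1.48 ± 0.21), a motor of the central spindle, and Kif23 (-1.39 ± 0.22). Racgap1 was at -1.32 ± 0.31, Prc1, which bundles central spindle microtubules, at -1.13 ± 0.21 and Ect2 at -1.07 ± 0.21. With normexp background correction Racgap1 was at 0.086, the other direction. In C57BL/6 the 5 cytokinesis genes measured on both arrays were also below 0, with a median of -0.75. By the probes used, Anln alone was at least 2-fold lower, at -1.16 ± 0.21. Second probes gave -0.89 for Anln and -1.01 for Kif20a.

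Other genes at least 2-fold lower with TmT in TRAMP were Nek2 at -1.57 ± 0.23, Ercc6l at -1.56 ± 0.26, Kif11 at -1.44 ± 0.28, Mki67 at -1.33 ± 0.20, Nuf2 at -1.30 ± 0.22, Ckap2 at -1.26 ± 0.23 and Cks2 at -1.05 ± 0.20. Spag5 was at least 2.69-fold lower. A second Kif11 probe, well above background on both TRAMP arrays, gave -0.50. Further probes marked so on both gave -1.62 for Casc5, -1.32 for Cenpe and -1.24 for Kif4, genes not 2-fold lower by the probes used. At the other end, the anaphase and ubiquitin genes had a median of 0.02, with Cdc20 at 0.31 ± 0.20 and Ube2c at -0.35 ± 0.21. The highest members by the probes used were Ccna2 at 0.62 ± 0.20, Bub1 at 0.39 ± 0.21 and Plk1 at 0.33 ± 0.20. The other Bub1 probe, well above background on both TRAMP arrays, gave -0.44, the other direction. Birc5 was at -0.14 ± 0.20 and Ccnb1 at 0.10 ± 0.20, both within the spot error.

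In C57BL/6, the 5 genes at least 2-fold lower after TmT were Tpx2 at -1.51 ± 0.24, Ccna2 at -1.38 ± 0.27, Ccnb1 at -1.17 ± 0.22, Anln at -1.16 ± 0.21 and Cdkn3, a phosphatase of cyclin-dependent kinases, at -1.16 ± 0.21. Kif11 was at least 2.60-fold lower and Hmmr at least 2.20-fold. Foxm1 was higher, by 1.38 ± 0.23, followed by Aurka at 0.71 ± 0.20 and Incenp at 0.50 ± 0.20. By the probes used here, Anln was the only one of these 5 lower genes also 2-fold lower in TRAMP. Other probes seen on all arrays gave -0.13 for Anln and -1.15 for Cdkn3 in TRAMP. In C57BL/6 the same probes gave -0.89 for Anln and -0.39 for Cdkn3, neither 2-fold lower, and a second Kif20a probe gave -1.01. For 25 of the 37 genes seen on all arrays the TmT difference was lower in TRAMP than in C57BL/6. The median of the difference between the lines was -0.36, and that of all genes was 0.06. This quantity is the residual of the fit and has no test.

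For 10 members at least 2 probes passed the background mark on all 4 arrays, and all of these gave values above 0 in both line comparisons and below 0 in both treatment comparisons. Sizes differed more between probes for TmT in TRAMP than in the other treatment comparison. The second Mki67 probe was at -0.17 there, against -1.33, the second Anln probe at -0.13, against -1.89, and the second Top2a probe at -2.08, against -0.73. Both probes were at least 2-fold lower for 3 genes, which are Kif20a (-1.48 and -1.40), Kif23 (-1.39 and -1.22) and Ckap2 (-1.26 and -1.10). For 6 genes only some of the probes were 2-fold lower, which are Mki67, Anln, Top2a, Cks2 (-1.05 and -0.86), Mad2l1 (-0.66 and -1.30) and Cdkn3 (-0.34 and -1.15).

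Beyond the 48, a list of 71 further genes of mitosis was drawn up from the known parts of the spindle, kinetochore, condensin and centrosome machinery, and 54 of them were seen on all 4 arrays. Their median fitted line difference was 1.33. Of these 54, 32 had an unadjusted limma p under 0.05, all higher in TRAMP, and 0 passed the adjusted threshold. At that unadjusted p, 6.92% of all genes seen on all 4 arrays were higher and 5.41% lower. The kinesin gene Kifc1, dim on both C57BL/6 arrays by the background mark, was at least 11.2-fold higher in TRAMP after oil and at least 2.48-fold after TmT. Sgol2, which protects centromeric cohesion, was 3.30 ± 0.25 higher after oil and at least 10.4-fold higher after TmT. The lowest fitted line differences were those of Wee1, a kinase that holds Cdk1 inactive, at -0.44 ± 0.34 (SE) and Troap at -0.25 ± 0.32 (SE). For TmT in TRAMP, 62 genes of the list were measured on both arrays, with a median of -0.56. Of these 62, 17 were lower by 2-fold or more and 1 higher, where 4.86% of all measured genes were lower and 8.66% higher. The 13 subunits and activators of the anaphase-promoting complex, the machine that Cdc20 activates, had a median line difference of -0.32, and 0 of them had an unadjusted p under 0.05.

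**Figure D4:**
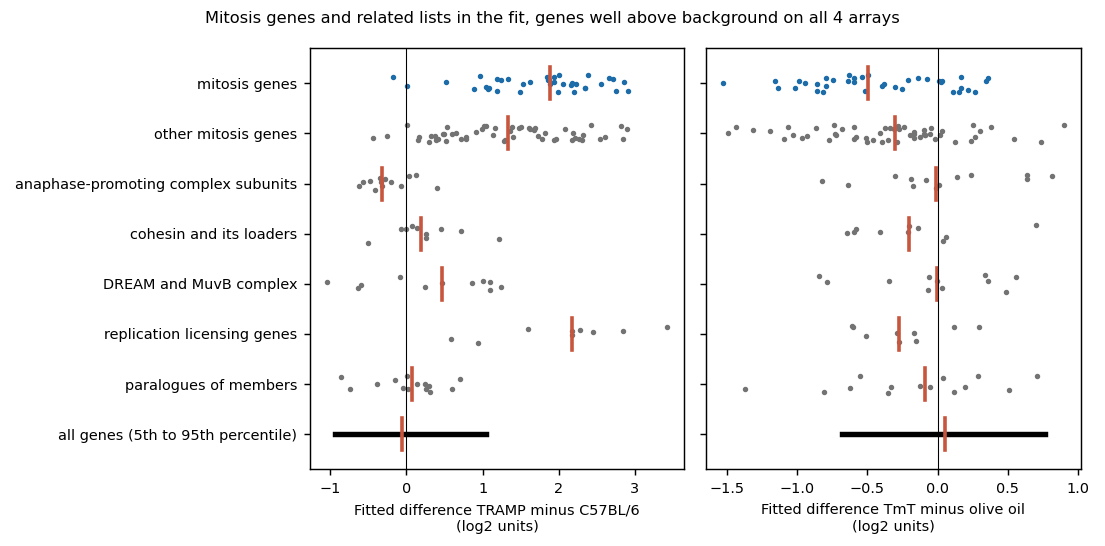
Points are fitted log2 differences of single genes over all 4 arrays, TRAMP minus C57BL/6 on the left and TmT minus olive oil on the right, for the mitosis genes (blue) and related lists (grey), over genes well above background on every array. Red bars are list medians, and the black bar spans the 5th to 95th percentile of all 16961 such genes, from -0.94 to 1.05 on the left. The median of the mitosis genes, 1.88, lies above that span.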

How the data were processed

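Prostate RNA of 4 groups was labelled with Cy3 and hybridised to 1 array per group, per the labels' protocols. Per the file headers, Agilent Feature Extraction 10.2.1.3 turned each scan into a processed intensity per spot, background-subtracted and detrended within the array, together with flags for background and outlier spots and probe positions on mm9. The deposited intensity values of the series' value table equalled this signal for all 45018 features of every array. Control spots and outlier spots were left out, no spot was saturated, spots of 1 probe were averaged, and intensities were expressed as log2 minus the log2 of the array's 75th percentile (161, 118, 139 and 71.3 for C57BL/6 after oil, C57BL/6 after TmT, TRAMP after oil and TRAMP after TmT).

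Pairs of arrays were compared by the difference of these values, counted at 2-fold where both arrays were well above background and given as a bound where only 1 was, with no test. An additive model of line and treatment was fitted with limma (version 3.58.1, under R 4.3.3; lmFit, then eBayes, with Benjamini-Hochberg adjustment at 0.05) to the 19921 genes that 2 or more arrays marked well above background, with 1 residual degree of freedom, a prior of 4.49 degrees of freedom and a prior SD of 0.355. The number of arrays limits the precision. Values on all 4 arrays are given for 10 index genes (Mki67, Top2a, Ccnb1, Ccnb2, Plk1, Aurkb, Birc5, Foxm1, Cdc20 and Ube2c), members past the threshold, the 3 highest and 3 lowest of each pairwise difference, and members dim on both arrays of a line. Of related lists, at most the 2 highest and 2 lowest line differences are named, and none of the anaphase-promoting complex. The members and lists were chosen with earlier results of these data known. Promoter windows came from RefSeq (GRCm38.p6). Protein sequences were not used here, so a planned search for a destruction motif was not run.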

Additional observations from a re-analysis of the deposited data

Results flagged for a closer look

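For 3 genes the TmT difference had opposite signs in the lines, each by more than 2 spot errors, and the difference between the lines was not tested, since it is the residual of the only fit. Ccna2, which encodes cyclin A2, was at -1.38 ± 0.27 in C57BL/6 and 0.62 ± 0.20 in TRAMP, a difference of 1.99. Foxm1, which encodes a transcription factor of late cell cycle genes, was at 1.38 ± 0.23 in C57BL/6 and -0.69 ± 0.21 in TRAMP, a difference of -2.07. Cdca8, which encodes borealin, was at 0.44 ± 0.20 and -0.42 ± 0.20, a difference of -0.86. Ccna2 was lowest on the array of C57BL/6 after TmT, and Foxm1 was lowest on that of C57BL/6 after oil.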

How the results depend on the processing

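Counts of members at least 2-fold higher in TRAMP after oil stayed within 1.5 times of 35 under every alternative run, and those after TmT did so except under normexp, with 14 in place of 29. The normexp setting was changed after seeing the data, leaving out spots with a local background over 100 (26 spots over the 4 arrays). Members past the adjusted threshold for line numbered 2, against 0 with quantile normalization, 0 on the signal before multiplicative detrending, 0 with the mean over all probes, 4 with median centring, 20 among genes well above background on all 4 arrays and 31 with normexp. For TmT in TRAMP, 13 members were lower, against 4 with normexp and 1 at a 3-fold threshold, and 0 were higher, against 1 before detrending. For TmT in C57BL/6, the 5 lower members became 0 with normexp, 0 at 3-fold and 12 with no background filter, and the 1 higher member became 0 with normexp and 0 at 3-fold. The treatment fit gave 2 lower members with normexp and 0 otherwise. The share of all genes called under each alternative is not given here, so none of these counts is set against all genes. Racgap1 with TmT in TRAMP was at 0.086 with normexp, against -1.32. The filter on all 4 arrays refits the model, with its prior, to fewer genes. The cause of none of these changes was tested. Normexp moved the median of all genes to 0.150 for TmT in TRAMP, against 0.10. No paired analysis was possible because each group has 1 array and the labels carry no replicate numbers.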

Other observations

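Replication licensing genes, which prepare DNA for copying earlier in the cell cycle, were also higher in TRAMP. Of 9 well above background on every array, 8 had an unadjusted limma p under 0.05, all higher, and 0 passed after adjustment. At that unadjusted p, 6.92% of all genes seen on every array were higher and 5.41% lower. The median of the 9 was 2.18. The helicase subunit gene Mcm3 was at -0.05 in C57BL/6 after oil, -0.48 in C57BL/6 after TmT, 3.11 in TRAMP after oil and 3.21 in TRAMP after TmT. The lowest fitted line differences of the list were those of Gmnn at 0.58 ± 0.33 (SE) and Orc6 at 0.94 ± 0.33 (SE). The 10 promoter windows of the licensing genes had a CHR match within 60 bases of the start in 0% and an E2F motif in 70.0%. The members' windows had 65.1% and 0%. In 60 windows of the further mitosis genes the shares were 38.3% and 16.7%, so the members' shares do not hold for mitosis genes at large.

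Paralogues of members had a median line difference of 0.08 over 14 tested genes, and 0 had an unadjusted limma p under 0.05. Top2b, the topoisomerase of resting cells, was at 4.23, 4.45, 4.85 and 5.02 on the arrays in the order just given, a fitted difference of 0.59 ± 0.32 (SE). In the same fit Nek7 was at 0.70 ± 0.35 (SE), Kif21a at -0.86 ± 0.36 (SE) and Ccna1 at -0.74 ± 0.38 (SE). Cohesin and its loaders had a median fitted line difference of 0.20 over 10 genes, with Smc1a at 1.21 ± 0.36 (SE) and Stag2 at -0.50 ± 0.34 (SE). The genes of the DREAM and MuvB complexes had a median of 0.47 over 11, from Lin52 at -1.04 ± 0.35 (SE) to Lin9 at 1.24 ± 0.37 (SE). Mybl2 was not well above background on any array.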
